A study of Mus musculus with 20 samples.

Results

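Tet1, Tet2, Tet3 and Tdg encode the enzymes of active DNA demethylation, and the 4 genes were followed as rows of a table of read counts per gene across 20 mouse libraries in 7 groups. They were chosen by name, 4 of the 21361 genes in the table. All 4 have a row, but only Tet1, Tet2 and Tet3 passed the filter on low counts and were tested. Tdg held 7 reads over the 20 libraries together.

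The 3 TET proteins are dioxygenases that use iron, oxygen and 2-oxoglutarate to oxidise 5-methylcytosine, first to 5-hydroxymethylcytosine and then to 5-formylcytosine and 5-carboxylcytosine. Thymine DNA glycosylase, encoded by Tdg, cuts out the formyl and carboxyl bases, and base excision repair then puts an unmodified cytosine in their place. Tet1 and Tet2 are known as the main TET enzymes of naive mouse embryonic stem cells, and Tet3 as the TET enzyme of the oocyte and zygote. Loss of DNA methylation is a known feature of migrating primordial germ cells and of embryonic stem cells held in inhibitor medium, while the formative epiblast regains methylation.

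Poly(A) RNA came from mouse cell lines in a study that placed primordial germ cells (PGCs) into early embryos. Embryonic stem cell lines comprised wildtype lines from the host embryos (ESC Host, C57Bl6J, n = 4), lines with a Bax knockout that had been derived before the study (ESC BaxKO, C57Bl6J/129SvEvRoEp, n = 2) and a Bax heterozygous line of the same mixed label (ESC BaxHet, n = 1). Lines labelled PGC-ESC lacked either Bax (PGC-ESC BaxKO, C57Bl6J/129SvEvRoEp, n = 5) or both Puma and Noxa, a double knockout (PGC-ESC DKO, C57Bl6J, n = 3). Epiblast-like cells (EpiLCs), an in vitro counterpart of the formative epiblast, form the last groups, EpiLC Host from Host lines 3 and 4 (n = 2) and EpiLC DKO from all 3 PGC-ESC DKO lines (n = 3). Each library is 1 cell line or the EpiLCs made from it. The labels describe culture on gelatin with LIF and inhibitors of GSK3 and MEK. They do not describe the conversion to EpiLCs.

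The libraries held 14255399 to 33376660 counts each. Bax stood at 1.66 to 2.43 CPM (counts scaled to a common library total) in the 7 Bax knockout lines and at 229 to 533 CPM in the Host and DKO libraries. Pmaip1, the Noxa gene, stood at 1.26 to 5.69 CPM in the 6 DKO libraries and at 20.2 CPM or more in the Host libraries. Low values also occurred without a Noxa label, at 6.27 to 9.54 CPM in ESC BaxKO and 4.34 to 43.4 CPM in PGC-ESC BaxKO. Low Pmaip1 was thus not particular to the DKO libraries. Bbc3, the Puma gene, was at 27.5 to 49.2 CPM in PGC-ESC DKO and at 38.5 to 49.7 CPM in ESC Host. The labels do not say which part of Bbc3 was deleted, so its counts do not check the label. EGFP, a reporter transcript, was at 1704 CPM or more in every BaxHet, BaxKO and PGC-ESC DKO library, at up to 807 CPM in EpiLC DKO, and at 0.547 CPM or less in the Host libraries. Naive markers matched the ESC and PGC-ESC labels, since the 7 of them summed to 2024 to 3273 CPM there and to 78.1 to 145 CPM in EpiLCs. The 5 formative markers summed to 128 to 288 CPM in ESC and PGC-ESC lines and to 1576 to 3191 CPM in EpiLCs. Dnmt3a and Dnmt3b are among these 5 and are also in the list of methylation genes below, so that list and this check share genes.

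Features of the libraries that enter later fits of the TET genes are given here first. Reads of Rn45s, the ribosomal RNA precursor, were low (1913 to 5106 CPM) in 9 libraries and high (17130 to 51924 CPM) in 11. The low set held all PGC-ESC BaxKO lines, BaxHet, ESC BaxKO 1 and ESC Host 1 and 2, and the high set held all DKO and EpiLC libraries, ESC BaxKO 2 and ESC Host 3 and 4. Y-linked genes gave more than 50 CPM in sum in ESC BaxKO 1 and 2, PGC-ESC BaxKO 2 and 5, and DKO line 3 before and after conversion. ESC Host 4 and its EpiLCs gave 15.4 and 19.7 CPM, and the remaining libraries gave 0.

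Tet2 and Tet3 moved in opposite directions on conversion, so the 250 bases before the RefSeq start of each gene are shown, with every CG, the dinucleotide that TET enzymes act on, in capitals. The sequences are from RefSeq for build GRCm38.p6 and run 5′ to 3′ on the minus strand, on which both genes lie. The RefSeq starts used lie inside the GENCODE vM21 genes, 749 bases from the outer end of Tet2 and 17406 bases from that of Tet3, so other annotated starts lie further upstream. The Tet2 window is chr3:133544391-133544640 and overlaps no exon of the annotation used. The Tet3 window is chr6:83441679-83441928 and overlaps an exon of the antisense transcript B230319C09Rik.
Tet2 upstream: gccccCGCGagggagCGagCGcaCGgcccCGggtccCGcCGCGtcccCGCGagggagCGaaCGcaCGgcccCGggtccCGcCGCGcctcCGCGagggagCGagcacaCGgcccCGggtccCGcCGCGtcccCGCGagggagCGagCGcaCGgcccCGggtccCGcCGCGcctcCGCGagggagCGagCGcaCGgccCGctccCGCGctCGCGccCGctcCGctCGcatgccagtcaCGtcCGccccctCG
Tet3 upstream: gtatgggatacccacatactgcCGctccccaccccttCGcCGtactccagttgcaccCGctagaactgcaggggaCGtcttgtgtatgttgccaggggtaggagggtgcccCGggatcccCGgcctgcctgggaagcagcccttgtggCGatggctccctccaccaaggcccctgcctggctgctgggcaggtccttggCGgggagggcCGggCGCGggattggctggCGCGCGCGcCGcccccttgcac

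The Tet2 window held 51 CG dinucleotides, a number reached by 0.067% of the 32851 windows of the same length before annotated starts. The Tet3 window held 17, a number reached by 23.5% of them, and the median window held 6. The window before Tet1, which fell in host lines as Tet2 did, held 15, a number reached by 27.3%. That window lies 21672 bases from the outer end of the GENCODE gene and overlaps an exon of Tet1 itself. The number of CG was not tested against the direction of change. These counts describe the letters only, and no methylation was measured in these samples.

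The reads of Tdg are few, and its sequence bears on what a count of it can mean. Tdg (ENSMUSG00000034674.18) lies on chromosome 10, from 82629828 to 82650799 on the plus strand of mm10, and mouse chromosomes carry processed pseudogenes of it, intronless copies of its mRNA. The first 90 coding bases of Tdg and the same stretch of the pseudogene Tdg-ps on chromosome 15 are shown, with the 3 bases at which the pseudogene differs in capitals.
Tdg: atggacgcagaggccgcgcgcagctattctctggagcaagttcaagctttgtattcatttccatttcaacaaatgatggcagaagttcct
Tdg-ps: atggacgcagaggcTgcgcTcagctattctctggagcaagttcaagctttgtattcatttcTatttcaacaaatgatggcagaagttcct

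Over the stretch that aligns, Tdg-ps was 98.7% identical to the Tdg transcript. Another 3 processed pseudogenes, Gm9855 on chromosome 10, Gm5597 on chromosome 7 and AC122846.1 on chromosome 19, were 99.2%, 99.3% and 99.0% identical. Of the 3453 windows of 50 bases in the Tdg transcript, 1972 (57.1%) occurred letter for letter in a pseudogene, and none of those in the Tet1, Tet2 and Tet3 transcripts did. The sources used here do not say how reads with several matching places were counted, and none of the 4 pseudogenes has a row in the table.

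Tdg had 0 reads in 15 libraries. The reads were 1 in ESC Host 2, 1 in PGC-ESC BaxKO 1, and 1, 3 and 1 in the EpiLCs of DKO lines 1, 2 and 3. A count of 0 allows up to 3 counts, which is 0.0899 to 0.210 CPM depending on the library, counting error only. Of the genes in the table, 11.9% had a total no larger than that of Tdg. The count is therefore at the limit of detection in every group, no comparison of Tdg was made, and these values do not say whether the Tdg gene was transcribed.

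Tet1 (ENSMUSG00000047146.17) lies on chromosome 10 from 62804570 to 62908996, minus strand, and encodes a TET protein with a CXXC domain that binds unmethylated CpG. In ESC Host lines 1 to 4 Tet1 was at 317, 343, 188 and 188 CPM. ESC BaxKO lines 1 and 2 had 310.2 and 308 CPM, and BaxHet had 469 CPM, the highest of the 20 libraries. The 5 PGC-ESC BaxKO lines ranged from 293 through a median of 312 to 405 CPM. PGC-ESC DKO lines 1 to 3 had 217, 178 and 246 CPM. EpiLCs had 162 and 132 CPM from Host lines 3 and 4, and 136, 163 and 235 CPM from DKO lines 1 to 3. Thus Tet1 was read abundantly in all libraries, both EpiLC Host libraries lay below every ESC Host line, and the EpiLCs of DKO line 3 lay within the range of the PGC-ESC DKO lines.

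Tet2 (ENSMUSG00000040943.12) lies on chromosome 3 from 133463679 to 133545139, minus strand. Its protein has no CXXC domain of its own, and the protein of a neighbouring gene, Cxxc4, is known to bind it. Tet2 was at 224, 139, 109.8 and 77.3 CPM in ESC Host lines 1 to 4, at 116 and 78.4 CPM in ESC BaxKO and at 126 CPM in BaxHet. PGC-ESC BaxKO lines 1 to 5 had 227, 106, 221, 161 and 71.0 CPM, and PGC-ESC DKO lines 1 to 3 had 89.8, 79.2 and 143 CPM. EpiLCs had 19.0 and 13.1 CPM from Host lines and 16.6, 19.8 and 17.4 CPM from DKO lines. The highest EpiLC library stood well below the lowest of the 15 ESC and PGC-ESC libraries, and the EpiLC groups overlapped each other.

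Tet3 (ENSMUSG00000034832.15) lies on chromosome 6 from 83362373 to 83459084, minus strand. Tet3 was at 12.8, 4.71, 3.00 and 2.93 CPM in ESC Host lines 1 to 4, at 6.32 and 6.22 CPM in ESC BaxKO and at 13.2 CPM in BaxHet. PGC-ESC BaxKO lines 1 to 5 had 25.6, 10.3, 22.4, 22.9 and 5.10 CPM, and PGC-ESC DKO lines 1 to 3 had 2.49, 4.98 and 7.66 CPM. EpiLCs had 17.9 and 22.7 CPM from Host lines and 19.98, 22.9 and 26.1 CPM from DKO lines. All EpiLC libraries were above all ESC Host, ESC BaxKO and PGC-ESC DKO lines, but PGC-ESC BaxKO lines 1, 3 and 4 lay inside the EpiLC range. The antisense transcript B230319C09Rik, which overlaps Tet3 by 6568 bases, had at most 2 reads in any library.

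**Figure D1:**
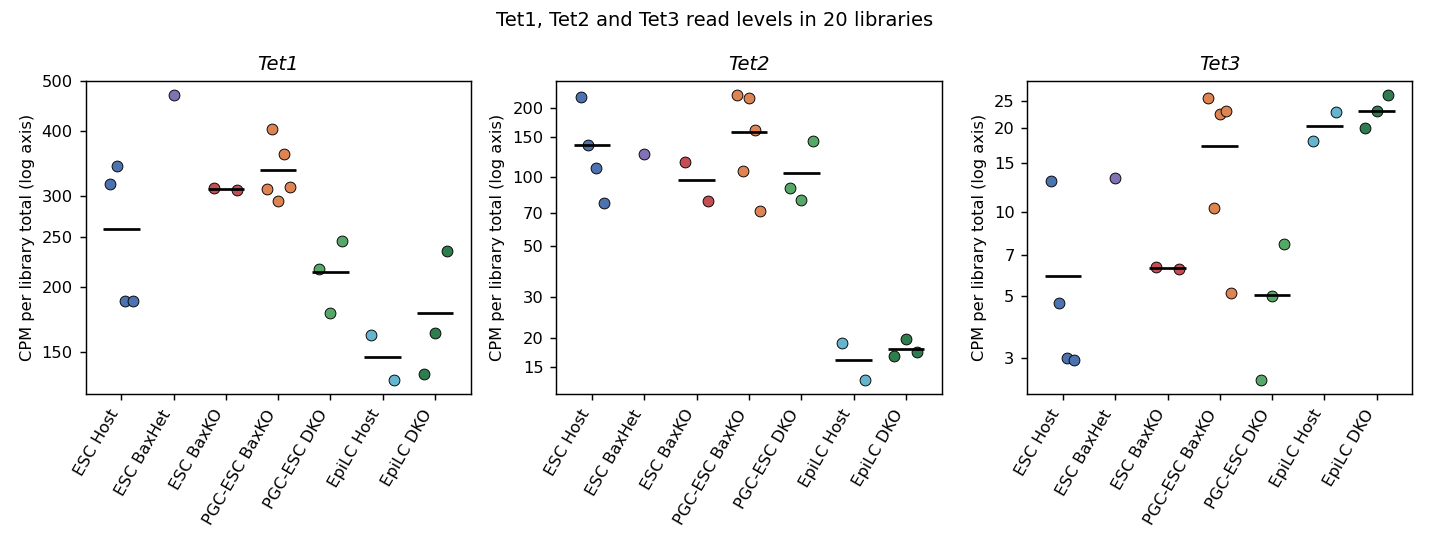
Each panel shows 1 gene, with CPM per library total on a log axis against the 7 groups; points are libraries and bars are group means where a group holds more than 1 line. Tet2 is below 20 CPM in all EpiLC libraries and above 70 CPM elsewhere, and Tet3 in PGC-ESC BaxKO lines spreads from 5.10 to 25.6 CPM.

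Tet1 and Tet2 fell and Tet3 rose when host lines were converted to EpiLCs. Genes were tested with edgeR (quasi-likelihood F test) and called at a Benjamini-Hochberg adjusted p under 0.05 over 16363 genes. All 3 tested members were called, against 44% of all genes in this comparison (22.4% higher and 21.7% lower). Tet2 fell from 140 to 15.1 CPM (group means of TMM-scaled CPM), a log2 fold change of -3.21 ± 0.46 (SE; 95% interval -4.18 to -2.25, adjusted p = 2.26e-05). Tet1 fell by 0.94 ± 0.23 on the log2 scale (95% interval -1.43 to -0.44, adjusted p = 0.00348). Tet3 rose from 5.94 to 19.2 CPM, a log2 fold change of 1.68 ± 0.55 (95% interval 0.53 to 2.83, adjusted p = 0.0184).

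Only Host lines 3 and 4 were converted, and their parent libraries carried the lower Tet1 of the host group. ESC Host 1 and 2, in the low Rn45s set, averaged 330 CPM of Tet1 and ESC Host 3 and 4, in the high set, 188 CPM. Among the high Rn45s libraries alone the change of Tet1 was -0.61 and was not called (adjusted p = 0.0586). With the line as a block, which sets EpiLCs against their own parents, Tet1 changed by -0.60 (adjusted p = 0.0338), Tet2 by -2.78 and Tet3 by 2.52 (adjusted p = 0.000123), so the Tet1 change was smaller and the Tet3 change larger than across all host lines. Without EpiLC Host 4, neither Tet1 (-0.80, adjusted p = 0.0613) nor Tet3 (1.503, adjusted p = 0.110) was called and Tet2 was the 1 member left. The part of Rn45s reads in the Tet1 level was not tested beyond these fits.

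Conversion of the DKO lines gave the same calls for Tet2 and Tet3 and none for Tet1. Of the 3 tested members 2 were called, against 47.6% of all genes (25.1% higher and 22.5% lower). Tet2 fell from 113 to 17.1 CPM, a log2 fold change of -2.72 ± 0.39 (95% interval -3.54 to -1.91, adjusted p = 2.08e-05). Tet3 rose from 5.47 to 21.9 CPM, a log2 fold change of 2.02 ± 0.56 (95% interval 0.84 to 3.20, adjusted p = 0.00667). Tet1 was at -0.45 ± 0.21 (95% interval -0.90 to -0.01, adjusted p = 0.0876).

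The call on Tet1 in DKO lines turned on the fit. EpiLCs and parents come from the same lines, and with the line as a block Tet1 was lower (-0.50, adjusted p = 0.0257), as it was without the EpiLCs of DKO line 3 (-0.73, adjusted p = 0.0104) and with the Y-linked level as a covariate (-0.48, adjusted p = 0.0458). With library totals in place of TMM scaling the value was -0.27. That scaling raised the median change over all genes by 0.20 in DKO lines and 0.14 in host lines, and in DKO lines 65.8% of the called genes were then higher, against 52.7% under TMM.

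Within each line the changes can be read directly, as EpiLC minus parent in log2 CPM per library total. Tet2 changed by -2.53 and -2.56 in Host lines 3 and 4 and by -2.44, -2.001 and -3.04 in DKO lines 1 to 3. Tet3 changed by 2.58 and 2.95 in the Host lines and by 3.00, 2.20 and 1.77 in the DKO lines. Tet1 changed by -0.22 and -0.51 in the Host lines and by -0.68, -0.13 and -0.07 in the DKO lines. Under TMM scaling, as in the tests, Tet1 changed by -0.37 and -0.84 in Host lines and by -0.89, -0.43 and -0.16 in DKO lines. All 5 lines moved one way for each gene, with the change of Tet1 smaller than those of Tet2 and Tet3 in every line.

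**Figure D2:**
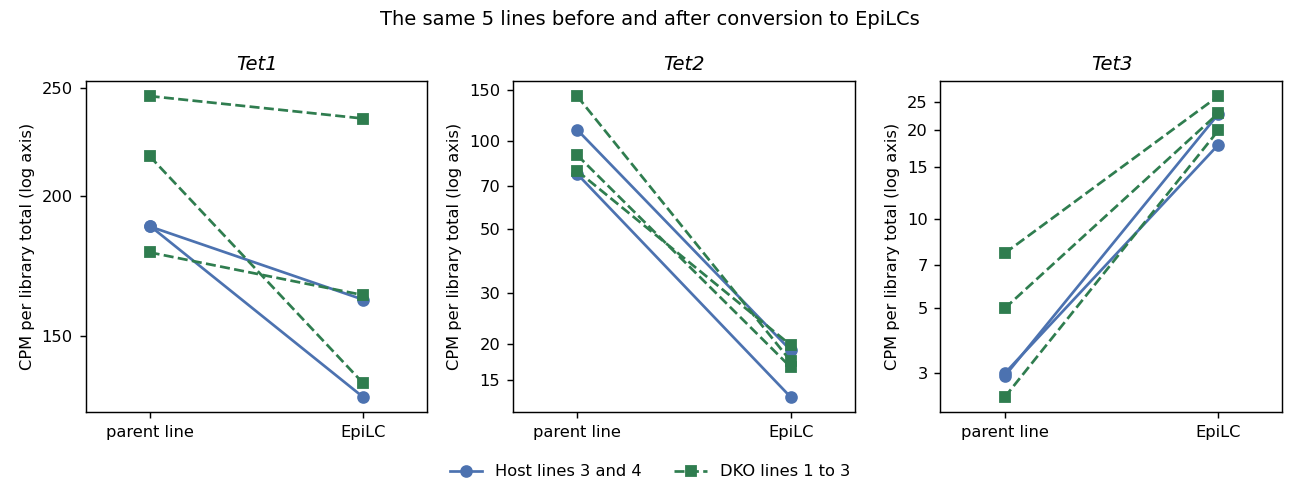
CPM per library total (log axis) of each TET gene in 5 lines, joined from the parent line to its EpiLCs, with Host lines as solid lines and DKO lines as dashed lines. Tet2 changes by -2.001 to -3.04 log2 units, Tet3 rises in every line by at least 1.77, and the Tet1 lines slope down by 0.07 to 0.68.

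No difference in these genes was detectable between converted cells of either kind. In EpiLC DKO against EpiLC Host, none of the 3 tested members was called by edgeR, against 0.0428% of all genes. The log2 fold changes were 0.29 for Tet1 (95% interval -0.21 to 0.80), 0.17 for Tet2 (-0.71 to 1.05) and 0.19 for Tet3 (-1.05 to 1.44), so the interval of Tet3 reaches past 1 log2 unit in either direction. The difference between the responses of the DKO and host lines, an interaction term, was 0.48 for Tet1 (95% interval -0.17 to 1.14), 0.49 for Tet2 (-0.65 to 1.62) and 0.34 for Tet3 (-1.32 to 1.99). None of the 3 was called there, against 0.00611% of all genes, and both comparisons share the EpiLC libraries with the conversions. In both, 0 members had an unadjusted p under 0.05 and DESeq2 called 0. With the line as a block, the response difference was 0.09 for Tet1 and 0.08 for Tet2, and that of Tet3 changed sign.

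The make-up of TET reads can be compared between genes only per length. CPM were divided by the longest protein-coding transcript in GENCODE vM21, which is 14369 bases for Tet1, 9179 for Tet2 and 10904 for Tet3. This length replaced a first choice, the transcript with the longest coding sequence (14369, 9021 and 5944 bases), after the values on that scale had been seen. On this scale, in CPM per kilobase, the ESC Host lines had 18.0 ± 5.74 of Tet1, 14.96 ± 6.83 of Tet2 and 0.538 ± 0.432 of Tet3 (mean ± SD, n = 4). EpiLC Host had 10.2 ± 1.45, 1.75 ± 0.454 and 1.86 ± 0.313 (n = 2), and EpiLC DKO had 12.4 ± 3.55, 1.95 ± 0.181 and 2.11 ± 0.282 (n = 3).

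Tet1 and Tet2 thus shared nearly all TET reads per kilobase in ESC and PGC-ESC lines, while EpiLCs were dominated by Tet1. The 15 ESC and PGC-ESC libraries had 4.82% of TET reads per kilobase or less from Tet3, and 25.9 to 51.7% from Tet2. EpiLC libraries had 9.20 to 13.8% from Tet2, 10.96 to 16.4% from Tet3 and 72.2 to 79.2% from Tet1. The ratio of Tet2 to Tet3 per kilobase was 8.34 to 43.5 in ESC and PGC-ESC libraries and 0.685 to 1.26 in EpiLCs, where Tet3 was above Tet2 in 3 of 5 libraries. With the first choice of transcript the ratio in EpiLCs was 0.380 to 0.700, with Tet3 above Tet2 in 5 of 5 and 18.4 to 26.4% of TET reads per kilobase from Tet3, and the ratio in the remaining libraries was 4.63 to 24.1. By coding length the ratio in EpiLCs was 0.503 to 0.926, again with Tet3 above in 5 of 5, and 6.12 to 31.9 elsewhere. The order of Tet2 and Tet3 in EpiLCs therefore turned on the length used, whereas Tet1 as the highest of the 3 in EpiLCs and Tet2 above Tet3 in every other library held under all of these lengths.

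**Figure D3:**
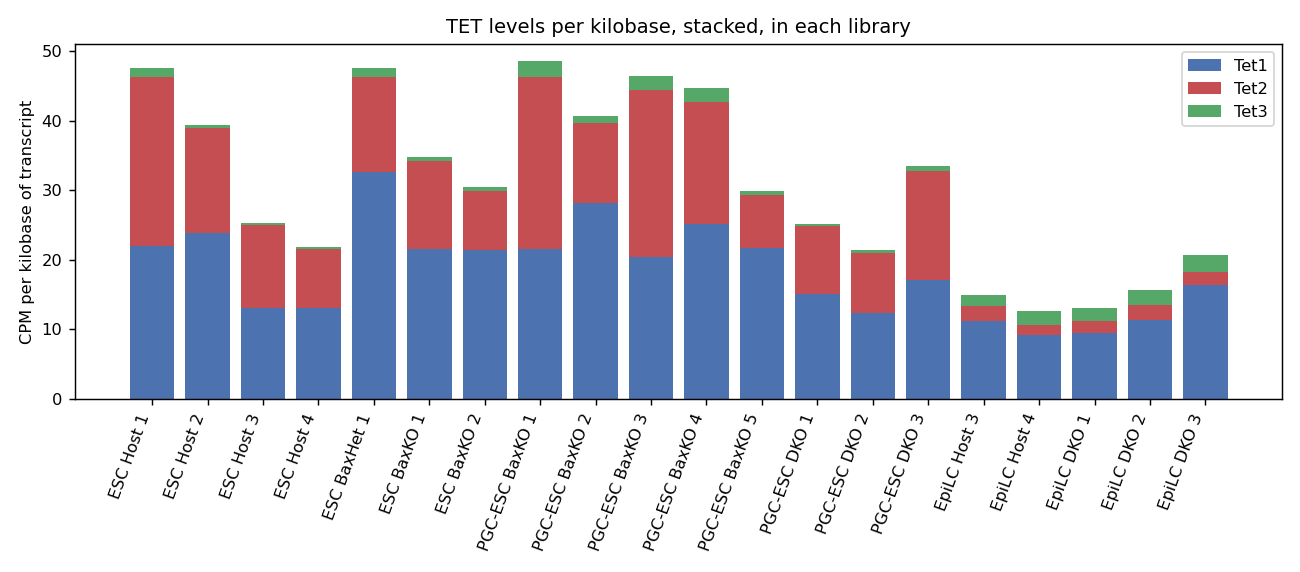
Bars are the 20 libraries, and their height is the summed CPM per kilobase of transcript of Tet1 (blue), Tet2 (red) and Tet3 (green) on a linear axis from 0. EpiLC bars reach 12.7 to 20.6, with little red, and ESC and PGC-ESC bars reach 21.5 to 48.6, with little green.

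Among the undifferentiated lines, the PGC-ESC lines were set against embryo-derived lines in each background. PGC-ESC DKO and ESC Host share the C57Bl6J label and differ in origin, in the double knockout and in EGFP, which cannot be told apart. None of the 3 tested members was called by edgeR, against 0.116% of all genes, 0 had an unadjusted p under 0.05 and DESeq2 called 0. The log2 fold changes were -0.19 for Tet1 (95% interval -0.61 to 0.23), -0.31 for Tet2 (-1.03 to 0.40) and -0.14 for Tet3 (-1.24 to 0.95), and all 3 changed sign among the high Rn45s libraries alone (0.15, 0.13 and 0.70).

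PGC-ESC BaxKO and ESC BaxKO share the Bax knockout, the mixed strain label and EGFP. None of the 3 tested members was called by edgeR or by DESeq2, against 0.0367% of all genes, and 1, Tet3, had an unadjusted p under 0.05. Tet1 was at 0.10 (95% interval -0.36 to 0.56) and Tet2 at 0.66 (-0.14 to 1.47). Tet3 was at 16.8 against 6.21 CPM, a log2 fold change of 1.43 ± 0.59 (95% interval 0.18 to 2.68, adjusted p = 0.476). It was 0.92 with the Rn45s set as a covariate and 0.31 without PGC-ESC BaxKO lines 1, 3 and 4, which lack Y-linked reads, a choice made after the values were seen.

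The ESC BaxKO and ESC Host lines differ in Bax, strain label, EGFP, Y-linked reads and time of derivation together. Y-linked reads summed to 244 and 188 CPM in ESC BaxKO 1 and 2 and to 15.4 CPM or less in ESC Host. In ESC BaxKO against ESC Host edgeR and DESeq2 called no member, against 5.02% of all genes, and 0 members had an unadjusted p under 0.05. The values were 0.20 for Tet1 (95% interval -0.27 to 0.67), -0.54 for Tet2 (-1.36 to 0.28) and 0.06 for Tet3 (-1.15 to 1.27). With the Y-linked covariate Tet1 was at -0.13.

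PGC-ESC BaxKO against PGC-ESC DKO was the 1 comparison of undifferentiated lines with a call. Tet3 was higher in the BaxKO lines, 16.8 against 5.47 CPM, a log2 fold change of 1.63 ± 0.52 (95% interval 0.54 to 2.72, adjusted p = 0.0313), the 1 call among 3 members, against 23.6% of all genes (12.2% higher and 11.4% lower). With library totals 70.8% of the called genes were higher, against 51.6% under TMM, and the median change over all genes rose by 0.16. Tet1 was at 0.50 ± 0.19 (95% interval 0.09 to 0.90, adjusted p = 0.0691) and Tet2 at 0.43 (95% interval -0.25 to 1.12). Genotype and strain label cannot be told apart here, nor can the Rn45s set, because all BaxKO lines were in the low set and all DKO lines in the high set.

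The highest Tet3 levels in this comparison were those of PGC-ESC BaxKO lines 1, 3 and 4. These lines had 22.4 to 25.6 CPM of Tet3, gave 0 Y-linked reads, and had 106 to 224 CPM of Dusp9, an X-linked phosphatase gene picked after its values were seen. Lines 2 and 5 had 10.3 and 5.10 CPM of Tet3, 214 and 212 CPM of Y-linked reads in sum, and 13.3 and 16.1 CPM of Dusp9. Elsewhere Dusp9 did not follow Y-linked reads, with 17.5 CPM in ESC Host 2, which had none, and 51.9 and 217 CPM in DKO line 3 before and after conversion, which had them. Tet2 followed the same split, with 161 to 227 CPM in lines 1, 3 and 4 and 71.0 and 106 CPM in lines 5 and 2, while Tet1 did not, with its highest value in line 2.

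Left with lines 2 and 5, a choice made after the values were seen, the Tet3 difference was 0.51 (adjusted p = 0.539) and that of Tet2 -0.36. With the Rn45s set as a covariate the Tet3 difference was 0.72 (adjusted p = 0.721). The call was also lost on removal of any 1 of PGC-ESC BaxKO 1, 3 and 4 and PGC-ESC DKO 1 and 2, with adjusted p from 0.0556 to 0.126 and log2 fold changes of 1.29 to 1.67, near the 1.63 of all lines. The other undifferentiated libraries with 0 Y-linked reads ranged from 2.49 to 13.2 CPM of Tet3, with BaxHet and ESC Host 1 at 13.2 and 12.8 CPM, ESC Host 2 and 3 at 4.71 and 3.00 CPM and PGC-ESC DKO 1 and 2 at 2.49 and 4.98 CPM. The part of the Y-linked state in the Tet3 level was not tested beyond these fits.

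Some fibroblast markers moved with the same lines. The 7 markers summed to 1.74 to 15.6 CPM in PGC-ESC BaxKO, and Col1a1 was at 11.8, 6.17 and 5.81 CPM in lines 1, 3 and 4 against 0.856 and 0.649 CPM in lines 2 and 5. Thy1 was at 3.01, 2.09 and 1.98 CPM in lines 1, 3 and 4 against 0.581 and 0.951 CPM in lines 2 and 5. Col1a2 was at 0.859, 0.523 and 0.686 CPM against 0.275 and 0.432 CPM. In the same 5 lines Col3a1 and Postn were at 0, and Dcn and Lum had at most 0.0523 CPM. In EpiLCs the fibroblast sum was 15.4 to 22.8 CPM and that of the 5 neuroectoderm markers 201 to 309 CPM, against 93.3 to 183 CPM in ESC and PGC-ESC lines. Markers of 2-cell-like cells, a rare state of stem cell cultures, summed to 48.6 to 166 CPM in EpiLCs, 22.2 to 59.0 CPM in PGC-ESC DKO, 6.38 to 37.1 CPM in ESC Host and 1.13 to 9.21 CPM in the Bax lines. In PGC-ESC BaxKO against PGC-ESC DKO 5 of the 5 were called lower (median log2 fold change -3.001), against 11.4% of all genes. In each conversion 3 of 5 were called higher, against 22.4% of all genes in host lines and 25.1% in DKO lines. The part of these markers in the TET levels was not tested, and in bulk samples fewer cells of a type and less RNA per cell cannot be told apart.

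**Figure D4:**
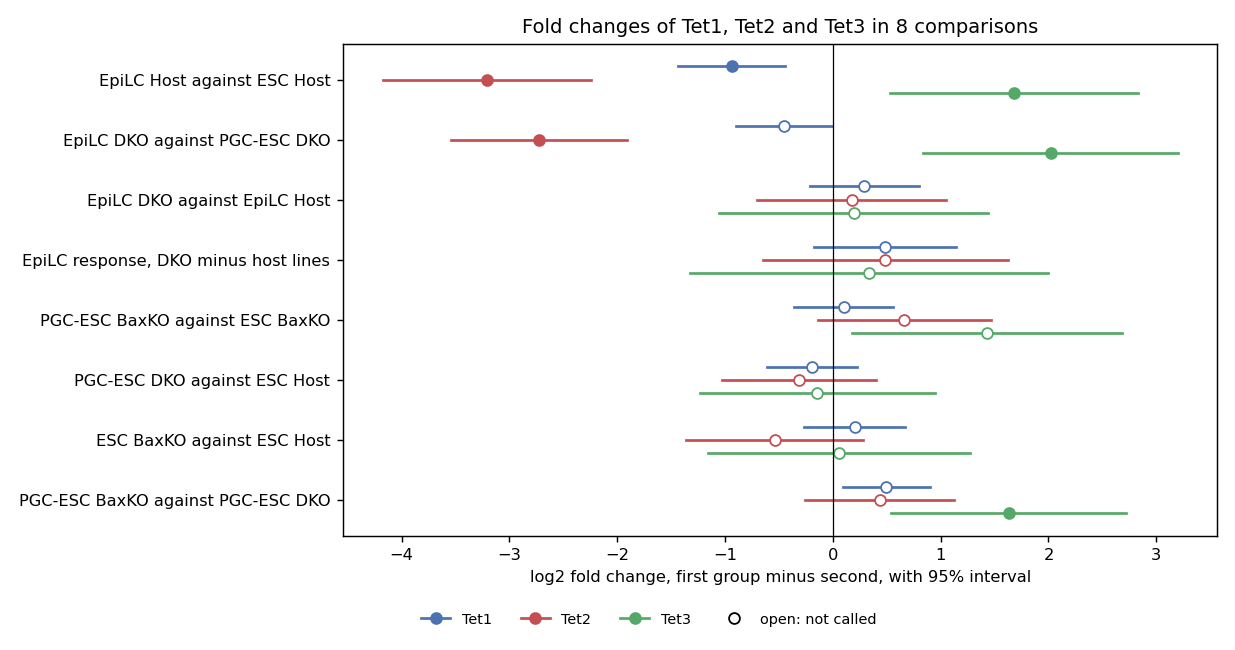
Log2 fold changes of Tet1, Tet2 and Tet3 (points) with 95% intervals (bars) in 8 comparisons, first group minus second; filled points were called. Filled points lie in the conversions and, for Tet3, in PGC-ESC BaxKO against PGC-ESC DKO.

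The genes that act around the TET enzymes were followed in lists by role, first those of base excision repair. Over all 77 listed genes 62.3% were called in host lines and 67.5% in DKO lines, against 44% and 47.6% of all genes tested, so each list below is read against those shares. In lists of 6 to 15 genes a single call moves the share by several percentage points, and no list was tested as a set. The lists were chosen with earlier results of these data known, so a share above that of all genes is no test of a list. The list of base excision repair held 11 genes, among them the glycosylase genes Neil1, Neil2 and Neil3. Of the 11, 2 rose and 6 fell in host lines, and 2 rose and 7 fell in DKO lines (72.7% and 81.8% called). Their median log2 fold changes were -0.65 and -0.61, against -0.03 and 0.01 over all genes tested. In host lines Xrcc1, the scaffold of single-strand break repair, fell by 0.89 (adjusted p = 0.000978), Apex1, the main abasic-site nuclease, by 0.69 (0.00102) and Lig1, a DNA ligase, by 0.63 (0.000374). Neil3, a glycosylase that cuts oxidised bases, rose by 1.56 (adjusted p = 0.00151) in host lines and 1.81 (0.000529) in DKO lines.

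Of 7 other DNA glycosylases, 1 rose and 3 fell in both conversions (57.1% called, near the share of all genes at this list size). Mpg, which removes alkylated purines, rose by 1.07 in host and 0.91 in DKO lines (adjusted p = 0.000256 and 0.000921). Ung, which removes uracil, fell by 0.98 and 0.90, Smug1, another uracil glycosylase, by 0.87 and 0.77, and Ogg1, which removes 8-oxoguanine, by 0.67 and 0.81. In host lines Ogg1 was not called without EpiLC Host 3 (adjusted p = 0.0821).

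Of 9 partners and regulators of TET proteins, 3 were higher and 4 lower in both conversions (77.8% called). Cxxc4, which encodes a CpG-binding partner of Tet2, rose by 3.79 in host lines (adjusted p = 5.58e-05) and 3.77 in DKO lines (0.000126), and its relative Cxxc5 fell by 0.86 and 1.08. Qser1, known to act with Tet1 in keeping methylation low, rose by 1.42 and 1.52 (adjusted p = 4.40e-05 and 2.11e-05). Ncoa3, a coactivator, fell by 1.51 and 1.19.

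Genes that supply or remove 2-oxoglutarate, or import vitamin C, gave 4 higher and 3 lower of 13 in both conversions (53.8% called, near the share of all genes). Idh2, the mitochondrial enzyme that makes 2-oxoglutarate, fell by 2.01 in host lines (adjusted p = 2.26e-07) and 2.07 in DKO lines (3.57e-08), and Idh3b fell by 0.58 and 0.68. The vitamin C transporter gene Slc23a1 rose by 3.47 in DKO lines (adjusted p = 3.23e-06), and Got2, a mitochondrial aminotransferase, by 0.70 in host lines (0.00109).

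Deaminases and Gadd45 proteins, proposed in other routes of demethylation, gave 3 higher and 2 lower of 7 in host lines and 3 and 3 in DKO lines (71.4% and 85.7% called). Apobec3 fell by 2.93 (adjusted p = 1.06e-07) and 2.54 (8.15e-08), and Apobec2 by 1.92 and 2.16. Gadd45g, a stress-response gene, rose by 1.53 and 3.30. The other 2-oxoglutarate dioxygenases that act on nucleic acids gave 5 lower and 0 higher of 9 in both conversions (55.6% called, all lower, against 21.7% and 22.5% of all genes called lower), among them Alkbh6, which fell by 1.15 and 1.29, and Alkbh1, which fell by 0.61 in each. In host lines Alkbh1 was not called with the line as a block (adjusted p = 0.0665) or without EpiLC Host 4 (0.0866), nor was Gadd45g without EpiLC Host 4 (0.244).

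Enzymes that set methylation work against TET enzymes. Of 6 genes of DNA methylation, 3 rose and 1 fell in host lines and 2 rose and 1 fell in DKO lines (66.7% and 50% called, the latter near the share of all genes). Of these 6, Dnmt3a and Dnmt3b also served above as formative markers. Dnmt3b and Dnmt3a, the de novo methyltransferases, rose by 2.90 and 2.52 in host lines (adjusted p = 3.01e-07 and 1.89e-05) and by 2.82 and 3.95 in DKO lines (5.83e-07 and 3.61e-07), and Uhrf1, which guides maintenance methylation, fell by 0.73 and 0.82. Dnmt3l, their cofactor, rose by 1.77 in host lines (adjusted p = 0.0258) but was not called without ESC Host 1 or 4 or EpiLC Host 3 (0.0605, 0.0586 and 0.398).

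Of 15 germline genes known to be silenced by promoter methylation, 6 rose and 2 fell in host lines, and 8 rose and 3 fell in DKO lines (53.3% and 73.3% called). Of all genes 22.4% and 25.1% were called higher. Mael, of the piRNA pathway, rose by 2.41 and 3.11 (adjusted p = 0.000117 and 1.93e-05), and Mov10l1, an RNA helicase of the same pathway, by 1.77 and 2.18. Ddx4, the germ cell helicase, rose by 1.81 and Sycp1, of the synaptonemal complex, by 2.94 in DKO lines. Tex19.1 and Hormad1 fell, by 2.07 and 2.67 in host lines.

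**Figure D5:**
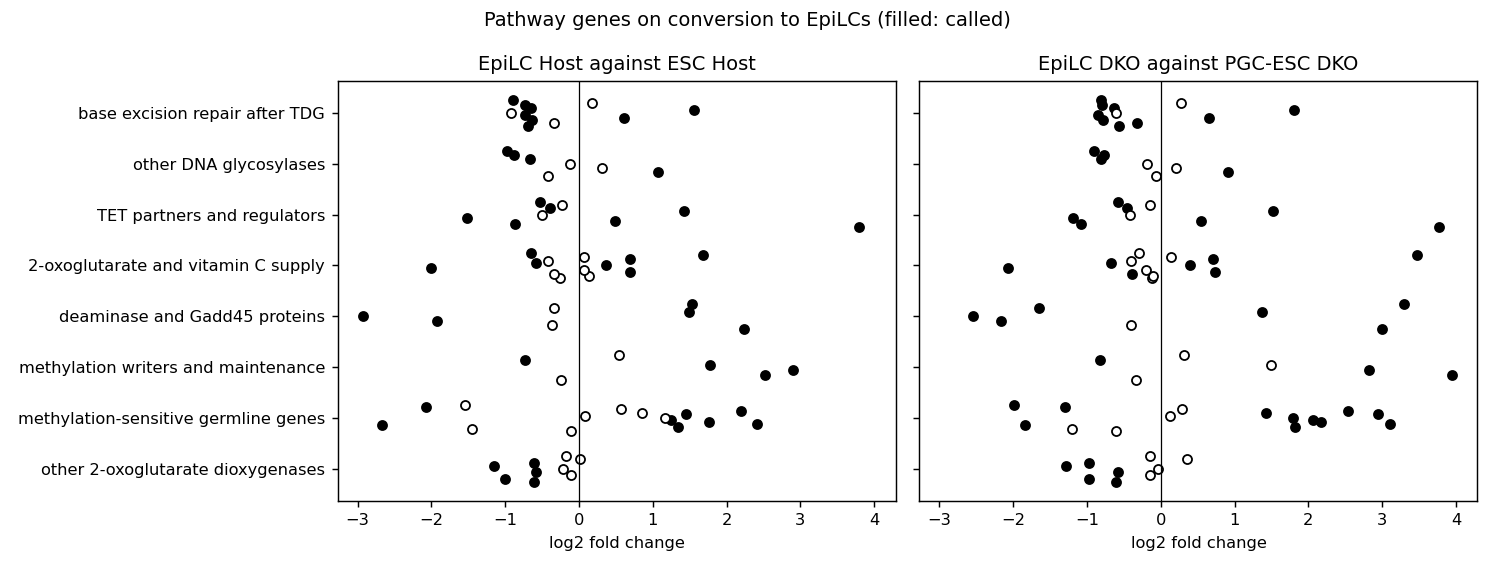
Each point is 1 gene of a list around the TET enzymes, placed by its log2 fold change on conversion of host lines (left) and DKO lines (right), with called genes filled. The dioxygenase list lies at or below 0 among its called genes, while the germline list reaches from -2.67 to 3.11.

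Between undifferentiated lines the number of listed genes called differed by comparison, as did the share of all genes called. In PGC-ESC BaxKO against ESC BaxKO, edgeR called 0 of the 77 genes, against 0.0367% of all genes. There 8 had an unadjusted p under 0.05 and DESeq2 called 1. In PGC-ESC DKO against ESC Host edgeR also called 0, against 0.116% of all genes, with 6 at an unadjusted p under 0.05 and 0 called by DESeq2. ESC BaxKO against ESC Host gave 4 (5.19%, against 5.02% of all genes), among them Gadd45g (-2.13) and Idh1 (0.68), and each of the 4 calls was lost without at least 1 of the ESC BaxKO lines. PGC-ESC BaxKO against PGC-ESC DKO gave 12 higher and 11 lower (29.9% called, against 23.6% of all genes). Among the called genes with the smallest adjusted p, Ogt (0.98) and Hcfc1 (0.65), its X-linked binding partner, were higher together with Sycp1 (2.54), Stk31 (1.76) and Smug1 (0.55). Lower were Apex1 (-0.63), Gadd45g (-2.42), Dnmt3l (-2.06), Alkbh7 (-0.79), Alkbh4 (-0.54) and Got1 (-0.45). With the Rn45s set as a covariate none of these genes was called. Some values stayed near as large, with Gadd45g at -2.33, Apex1 at -0.53, Alkbh4 at -0.48 and Hcfc1 at 0.55. Smug1 was at 0.19, Alkbh7 at -0.19 and Got1 at -0.15. Without the PGC-ESC BaxKO lines that lack Y-linked reads, Ogt (0.60), Hcfc1 (0.45) and Smug1 (0.55) were not called. Neither were Apex1 (-0.50), Dnmt3l (-1.31), Alkbh7 (-0.69), Alkbh4 (-0.35) and Got1 (-0.27). That choice of lines was made after the values were seen.

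Genes whose pattern lay nearest to each TET gene were found over the 20 libraries, by the root-mean-square difference of log2 CPM after each gene was centred on its own mean, among 16362 other genes. For Tet1 they were Phc3 (0.15), Kif13b (0.16) and Asxl2 (0.17), where Tet1 itself had an SD of 0.51. For Tet2 they were Nfatc2ip (0.32), Zfhx2 (0.33) and Hap1 (0.35), against an SD of 1.35. For Tet3 they were Zfp185 (0.33), Neil3 (0.40) and Csf1 (0.46), against an SD of 1.05. Neil3, of the excision repair list above, ranged from 1.68 to 9.27 CPM, and these likenesses describe the 20 libraries, which share lines and conversion.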

How the data were processed

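The authors deposited whole-number read counts per gene for 21361 genes in 20 libraries of poly(A) RNA. Alignment was with STAR 2.7.7a to mm10, per the submitters' processing notes. The sources used here do not give the counting tool, annotation and use of strand. Replicates differed by more than counting error (chi-square per gene 6.73 to 224 over 24 pairs), and p-values measure the spread between these lines.

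CPM are counts scaled to a common library total. The tests used edgeR 4.0.16 and R 4.3.3 (quasi-likelihood F test, two-sided, TMM scaling, default filter on low counts, 7 group coefficients, 13 residual degrees of freedom, Benjamini-Hochberg adjustment over 16363 genes), after the test was run on simulated data. The fit excluded 4998 genes. SEs and 95% intervals come from the F statistic.

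EpiLCs and parents carry the same line numbers, and the labels say EpiLCs were made from those lines, so the lines pair them. Deviations of same-numbered libraries correlated at 0.18 for the Host lines and 0.11, 0.12 and 0.09 for DKO lines 1 to 3.

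Members and lists were chosen with earlier results of these data known. Text names the 4 members, up to 4 called genes with the smallest adjusted p per list in conversions and 2 elsewhere, and the 3 genes nearest in pattern to each member; a few genes that the rule picks are not reported here. Gene models came from GENCODE vM21 (mm10) and upstream sequences from RefSeq (GRCm38.p6). Alternatives were DESeq2 1.42.0, RLE scaling, library totals, no filter, other sample sets, covariates, a line block and leaving out each library.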

Additional observations from a re-analysis of the deposited data

How the results depend on the processing

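Of 429 refits of Tet1, Tet2 and Tet3 over all comparisons, 387 kept direction and side of the threshold, 14 lost a call, 5 gained one and 23 changed sign, all 23 among values with no call. Tet2 in both conversions kept its call in every refit. The number of members called in the host conversion was 3, and 1 to 3 on leaving out each library (1 without EpiLC Host 4). In PGC-ESC BaxKO against PGC-ESC DKO it was 1, and 2 with library totals, 0 with the Rn45s covariate, 0 at an adjusted p under 0.01, 0 with only the 15 ESC and PGC-ESC libraries, 0 without the PGC-ESC BaxKO lines that lack Y-linked reads (chosen after seeing the data), and 0 to 1 on leaving out each library. With only the compared groups Tet3 there was 1.61 (adjusted p = 0.0560) and Tet1 0.48 (0.0246), and with library totals Tet1 was 0.65 (0.0345). With the replicate block of lines, 3 members were called in each conversion, Tet1 in DKO lines at -0.50 being the 1 change of call.

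Signs that changed were, with the Rn45s covariate, Tet1 (0.040), Tet2 (0.087) and Tet3 (0.45) in PGC-ESC DKO against ESC Host, Tet1 (-0.11) in PGC-ESC BaxKO against ESC BaxKO, Tet2 (-0.26) in PGC-ESC BaxKO against PGC-ESC DKO and Tet3 (-0.26) in the response difference. Among high Rn45s libraries they were Tet1 (0.15), Tet2 (0.13) and Tet3 (0.70) in PGC-ESC DKO against ESC Host and Tet3 (-0.51) in the response difference, which was -0.42 with the replicate block. With the Y-linked covariate they were Tet3 (0.015) in PGC-ESC DKO against ESC Host and Tet1 (-0.13) in ESC BaxKO against ESC Host. Without the Y-lacking lines Tet3 against ESC BaxKO kept its sign at 0.31, and Tet2 was -0.13 against ESC BaxKO and -0.36 against PGC-ESC DKO. Leaving out single libraries turned Tet2 in EpiLC DKO against EpiLC Host (without EpiLC Host 4; range -0.073 to 0.47), Tet3 in the response difference (without ESC Host 1 or PGC-ESC DKO 1; -0.34 to 0.72), Tet3 in PGC-ESC DKO against ESC Host (the same libraries; -0.53 to 0.53) and Tet3 in ESC BaxKO against ESC Host (without ESC Host 2, 3 or 4; -0.16 to 0.73). The cause was not tested.

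Counts over all genes that moved by more than 1.5 times were those of ESC BaxKO against ESC Host (821, with 1419 by DESeq2, 210 with the Y-linked covariate, 399 with 15 libraries, 136 with the compared groups, 224 at 0.01 and 182 to 1015 without single libraries), PGC-ESC BaxKO against PGC-ESC DKO (3858, with 204, 1385 and 1519 under the Rn45s covariate, the 0.01 threshold and without the Y-lacking lines, and 1552 to 4198 without single libraries), PGC-ESC DKO against ESC Host (19, with 90 by DESeq2, 9 with the compared groups and 14 to 44), PGC-ESC BaxKO against ESC BaxKO (6, with 71 by DESeq2, 10 unfiltered, 2 with the Rn45s covariate, 0 under RLE, library totals, the Y-linked covariate, 0.01, 15 libraries, the compared groups and without the Y-lacking lines, and 0 to 12), EpiLC DKO against EpiLC Host (7, with 33 by DESeq2 and 5 to 11) and the response difference (1, with 5 by DESeq2, 2 with the Y-linked covariate, 0 with the compared groups, high Rn45s libraries or the block, and 0 to 3). The mean ratio of Tet2 to Tet3 per kilobase, 0.973 in EpiLC Host and 0.936 in EpiLC DKO, was 0.715 and 0.687 by coding length and 0.540 and 0.519 with the transcript of the longest coding sequence, the length first chosen and replaced after its values were seen. Biological coefficients of variation were 0.189 for Tet1, 0.309 for Tet2 and 0.452 for Tet3 against a median of 0.232. Tdg, with 7 reads, could not be compared at this depth.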
